A study of Mus musculus with 32 samples.

Results

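The 10 genes described here encode resident chaperones, folding enzymes and stress-response factors of the endoplasmic reticulum (ER), measured in cultured mouse cardiac fibroblasts. They were chosen by name and are Hspa5, Hsp90b1, Pdia4, Pdia6, Calr, Dnajb9, Xbp1, Herpud1, Sdf2l1 and Creld2. All 10 are among the 55414 Ensembl genes of the count table, and all 10 passed the filter on low counts that left 16760 genes tested. Poly(A) RNA was sequenced from 32 libraries in 8 groups of 4. All groups share the genotype C57BL/6J_Pkm2fl/fl, in which the gene Pkm is floxed, and the series concerns a switch between the PKM2 and PKM1 forms of pyruvate kinase. Cells at passage 1 were transduced with LacZ, the control vector, or with iCre, a codon-improved form of the recombinase Cre that cuts loxP-flanked DNA. They were then serum-starved and kept without stimulus (labelled SS, an abbreviation the labels do not spell out) or given bFGF, IL-1b or TGFb for 24 h, labelled FGF, ILB and TGFB. The protocol text gives 20, 15 and 10 ng/ml for these agents in that order, but it speaks of TAK1fl/fl mice and a TNFa arm, so the doses are taken from text that conflicts with the rest of the labels. All cells were first grown in a medium with serum, insulin-transferrin-selenium and bFGF. The labels do not say whether the 4 libraries of a group came from separate animals or cultures, so p-values measure the spread between these libraries.

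The ER folds and modifies secreted and membrane proteins. When unfolded protein accumulates there, the sensors IRE1, PERK and ATF6 start the unfolded protein response. IRE1 splices the Xbp1 mRNA into the form that encodes an active transcription factor, PERK slows translation and raises ATF4, and ATF6 is cut in the Golgi to release a transcription factor. ATF6 and XBP1 drive chaperone genes through ER stress response elements (ERSE) in their promoters. In fibroblasts the same machinery folds collagen and other matrix proteins, which these cells secrete in large amounts. Counts per gene cannot tell spliced from unspliced Xbp1 mRNA, and in bulk libraries fewer cells of a type and less RNA per cell cannot be told apart.

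The promoters of 6 of the 10 genes hold an exact match to an element of this response, and these matches are printed as a description of sequence. The members were chosen by name as genes of this response, so the matches are not independent of that choice. RefSeq promoters of GRCm38.p6, each covering 250 bases before to 50 after the gene's RefSeq start, were searched on both strands, and all 10 genes had one. The ERSE was searched as CCAAT and CCACG with 9 bases of any kind between them. It was found in 39 of 32851 promoters (0.119%) and in those of 5 members, Hspa5, Hsp90b1, Pdia6, Calr and Creld2. In these lines, written 5′ to 3′ along each gene's strand, capitals mark the match, with 5 flanking bases a side.
Hspa5, chr2:34772020-34772048, plus strand, 65 to 47 bases before the start: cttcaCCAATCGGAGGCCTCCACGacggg
Hsp90b1, chr10:86705633-86705661, minus strand, 212 to 194 bases before the start: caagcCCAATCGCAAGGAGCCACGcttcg
Hsp90b1, chr10:86705528-86705556, minus strand, 107 to 89 bases before the start, motif on the opposite strand: gagtgCGTGGTGAGGCACGATTGGtgagt
Pdia6, chr12:17266486-17266514, plus strand, 98 to 80 bases before the start: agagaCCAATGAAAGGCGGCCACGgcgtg
Calr, chr8:84847070-84847098, minus strand, 162 to 144 bases before the start, motif on the opposite strand: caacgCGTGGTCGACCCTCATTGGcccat
Creld2, chr15:88819515-88819543, plus strand, 126 to 108 bases before the start, motif on the opposite strand: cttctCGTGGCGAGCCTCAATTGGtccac
The Hspa5 stretch lies inside the gene as GENCODE draws it, since that annotation starts the gene further upstream, and the others lie upstream of the annotated gene.

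With 1 mismatch allowed among the 10 fixed letters, the ERSE was found in 494 promoters (1.5%) and in those of 7 members. That adds Pdia4 and Herpud1, and the Hsp90b1 promoter gains a further stretch. Herpud1 also holds the shorter ERSE-II, ATTGG and CCACG with 1 base between them, which was found in 12 promoters (0.0365%). The next stretches show the near matches and this other element, with capitals again for the match. The Herpud1 near match crosses the start and is not printed.
Pdia4, chr6:47813597-47813625, minus strand, 108 to 90 bases before the start, 1 mismatch, motif on the opposite strand: aaccgAGTGGCAGCCCGTGATTGGtggtc
Hsp90b1, chr10:86705593-86705621, minus strand, 172 to 154 bases before the start, 1 mismatch, motif on the opposite strand: ccgcaCCTGGACAGTTCCGATTGGcgggc
Herpud1, chr8:94386372-94386392, plus strand, 52 to 42 bases before the start, ERSE-II: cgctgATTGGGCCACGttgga
Herpud1 was also the member with the ATF4-type element TGATGCAA, 112 to 105 bases before the start, which 294 promoters held (0.895%). The XBP1-type element TGACGTGG was found in 222 promoters (0.676%) and in 0 of the 10. Pdia4, Dnajb9, Xbp1 and Sdf2l1 held none of these 4 motifs in exact form, which says only that these letters are not in those 300 bases. A match is a description of the sequence and shows neither binding nor a cause of any change below.

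Library totals ran from 20736203 to 34995038 counts, and the members from 348 to 84075 counts in a library. In each of the 16 pairs of the same stimulus and number the iCre library was the deeper, by 1.02 to 1.22 times (median 1.19). Groups follow the sample titles. The treatment tags of all 16 LacZ libraries conflict with their titles, and 4 of those libraries carry an iCre tag. Genes known to respond to the stimuli followed the titles in both vectors: Nos2 stood at 174.0 CPM or more in the ILB libraries and at 0.70 CPM or less in all others, Spry4 at 81.6 CPM or more in FGF and 28.3 CPM or less in all others, and Pmepa1 at 946 CPM or more in TGFB and 273 CPM or less in all others. Pkm, the floxed gene, was lower in iCre in 16 of 16 pairs (log2 difference -0.50 ± 0.11 (SE), edgeR adjusted p = 0.0744, 3.70e-06 with each pair as a block, and 0.0572 on counts summed over the conditions with the replicate number as a block), while gene counts cannot separate its PKM1 and PKM2 transcripts. Fibroblast markers were abundant in every library, with Col1a1 at 3079.7 CPM or more. Of the markers of other heart cells, Pecam1 of endothelium reached at most 1.42 CPM, and Myh6 of cardiomyocytes was at 0 in 23 libraries and Nppa in 30. Other markers of the same kinds were not near 0: Tnnt2 of the cardiomyocyte list had a median of 17.0 CPM and reached 125 CPM, endothelial Tek reached 31.6 CPM, mural Rgs5 and Notch3 reached 793 and 547.6 CPM, and leukocyte Lyz2 reached 603.9 CPM. CPM is a count scaled to the library's total multiplied by its TMM factor, and the tests use the same factors.

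The libraries numbered 4 stand apart. The summed level of the 8 fibroblast markers had a median of 31354.6 CPM in them, against 43685.8 to 52149.4 for the numbers 1 to 3, and that of the 12 leukocyte markers had a median of 71.8 CPM against 130.8 to 645.9. Members were lower there too outside TGFB: 55 of 60 member values of number 4 in the SS, FGF and ILB groups lay below their group's mean, with a median log2 deviation of -0.29. In the TGFB groups 10 of 20 did. These are values of 10 genes that vary together in the same libraries. The matching share over all genes tested is not given here, so they are not read as particular to the members. The TMM factors of number 4 in the SS, FGF and ILB groups were 1.064 to 1.20, against 0.949 to 1.064 for the numbers 1 to 3. A higher factor gives a lower CPM, so these levels rest in part on that scaling. What part these differences of number 4 have in any result was not tested, and each comparison is given with and without these libraries where the count of members differs.

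In unstimulated LacZ cells the abundant members were the luminal chaperones. Per kb of exon, Calr, which encodes the calcium-binding lectin chaperone calreticulin, stood at 394 ± 42.4 CPM (SD, n = 4). Hsp90b1, which encodes the ER member of the HSP90 family GRP94, stood at 255 ± 44.5 CPM per kb, and Hspa5, which encodes the HSP70 chaperone BiP, at 190.0 ± 14.7. Pdia4 (96.6 ± 7.96 CPM per kb) and Pdia6 (83.7 ± 8.97 CPM per kb), which encode disulfide isomerases, were next and overlapped within their spread. Herpud1, a membrane protein of ER-associated degradation, stood at 41.0 ± 10.8 CPM per kb. Creld2 (27.2 ± 2.48 CPM per kb), an ER stress-inducible protein with EGF-like domains, and Xbp1 (26.1 ± 1.22) overlapped within their spread. Dnajb9, a J-domain co-chaperone of BiP, stood at 17.5 ± 1.27 CPM per kb and Sdf2l1, a stabilising partner of ER J proteins, at 14.4 ± 2.06, the lowest of the 10. The order changed little with stimulus: in LacZ TGFB Calr still led at 792 ± 102 CPM per kb, Hspa5 (550.0 ± 67.5) and Hsp90b1 (543 ± 63.7) overlapped, and Dnajb9 was lowest at 24.9 ± 4.24. The genes lie on 8 chromosomes (GRCm38, GENCODE M21), with Calr at chromosome 8, 84841850 to 84846934 and Herpud1 at chromosome 8, 94386438 to 94395377.

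Together the 10 genes took 0.392 ± 0.031% of all counts in LacZ SS, 0.437 ± 0.015% in LacZ FGF, 0.581 ± 0.074% in LacZ ILB and 0.772 ± 0.080% in LacZ TGFB (SD, n = 4). In iCre the shares were 0.404 ± 0.035%, 0.460 ± 0.041%, 0.590 ± 0.055% and 0.747 ± 0.068% in the same order. The TGFB libraries of both vectors, at 0.674% or more, all lay above every library of the other groups, of which the highest held 0.637%.

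**Figure D1:**
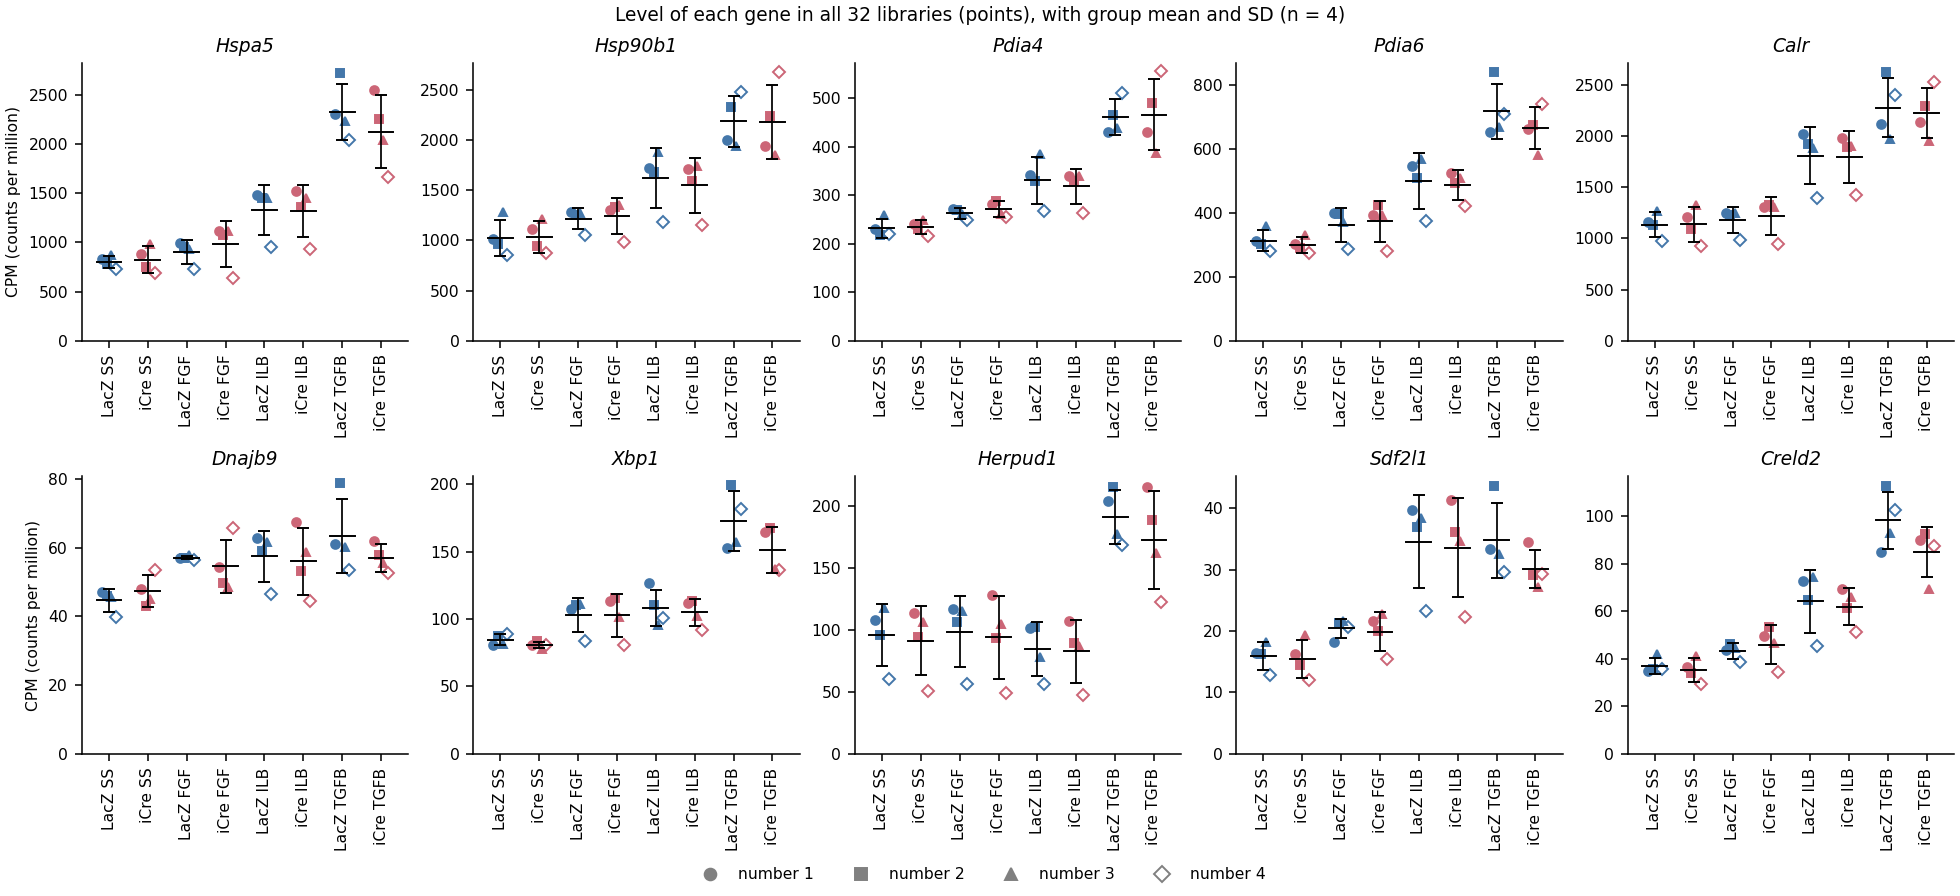
Level of each of the 10 genes in every library, in CPM on a linear axis from 0, by group along the x axis, with a point per library shaped by its number, a bar at the group mean and an error bar of 1 SD (n = 4). In LacZ all 4 TGFB points lie above all SS points for all 10 genes, and the open points of number 4 lie low in most SS, FGF and ILB groups.

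TGFb raised the whole set. In LacZ cells all 10 members rose against SS (edgeR quasi-likelihood test, adjusted p under 0.05), in a comparison where 23.4% of the 16760 genes tested rose. Their median log2 fold change was 1.06, against -0.058 over all genes tested. For all 10, every TGFB library lay above every SS library, which 21.1% of all genes tested did, and every numbered pair was higher. In iCre cells 9 of 10 rose (20.2% of all genes tested), with a median of 0.98, and every TGFB library lay above every SS library for 9 (16.4% of all genes tested). On total counts without TMM the median over all genes in LacZ moved to -0.258 and that of the members to 0.86, and the genes that rose and fell went from 3925 and 3834 to 2553 and 5078. In iCre they went from 3378 and 3039 to 1918 and 4630.

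The largest change was in Hspa5, whose product BiP binds unfolded chains and holds the stress sensors inactive. Hspa5 (Ensembl ENSMUSG00000026864, chromosome 2, 34771970 to 34777547) stood at 833, 779, 872 and 730.0 CPM in the 4 LacZ SS libraries, in the order of their numbers, and at 2304, 2721, 2235 and 2044 CPM in LacZ TGFB. The groups were far apart, and the lowest TGFB library held more than the highest of SS, FGF or ILB. The log2 fold change was 1.53 ± 0.19 (SE), a fold of 2.89 (adjusted p = 2.68e-07). In iCre cells Hspa5 stood at 882, 748, 985 and 689 CPM in SS and at 2551, 2253, 2043 and 1662 CPM in TGFB, a log2 fold change of 1.36 ± 0.19 (adjusted p = 2.58e-06). In CPM, number 4 was the lowest library of each of these 4 groups.

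Hsp90b1 and Calr, the other abundant chaperones, rose by somewhat less. Hsp90b1 (chromosome 10, 86690209 to 86705509) stood at 1017, 962, 1279.5 and 858 CPM in LacZ SS and at 2007, 2327, 1940.0 and 2479 CPM in LacZ TGFB. The 4 paired folds of Hsp90b1 were 1.97, 2.42, 1.52 and 2.89, with number 4 the highest and number 3, whose SS level was high, the lowest. Its log2 fold change was 1.09 ± 0.17 (adjusted p = 6.50e-06) in LacZ and 1.07 ± 0.17 (adjusted p = 1.36e-05) in iCre. Calr stood at 1157, 1129, 1273 and 976 CPM in LacZ SS and at 2122, 2629, 1970.2 and 2402 CPM in LacZ TGFB, a log2 fold change of 1.01 ± 0.15 (adjusted p = 3.68e-06). The lowest TGFB value of Calr was above the highest SS value, and in iCre the log2 fold change was 0.97 ± 0.15 (adjusted p = 1.09e-05).

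The disulfide isomerases rose as well. Pdia4 (chromosome 6, 47796141 to 47813430) stood at 229.9, 217, 259 and 221 CPM in LacZ SS and at 429, 465, 439 and 512 CPM in LacZ TGFB, a log2 fold change of 0.99 ± 0.11 (adjusted p = 6.36e-08). Its values were tight within groups, and the log2 change in iCre was 0.99 ± 0.11. Pdia6 (chromosome 12, 17266545 to 17284770) stood at 312, 302, 359.9 and 280.3 CPM in LacZ SS and at 652, 841, 669 and 711 CPM in LacZ TGFB, with number 2 the highest TGFB library. The log2 fold change of Pdia6 was 1.20 ± 0.14 in LacZ (adjusted p = 1.40e-07) and 1.15 ± 0.14 in iCre.

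Among the stress-inducible cofactors, Creld2 rose the most. Creld2 (chromosome 15, 88819646 to 88826683) stood at 35.0, 35.9, 42.2 and 35.5 CPM in LacZ SS and at 84.9, 113, 92.9 and 103 CPM in LacZ TGFB, a fold of 2.65 (log2 1.40 ± 0.15, adjusted p = 3.07e-08). Every TGFB library held more than any SS library by a wide gap. Sdf2l1 (chromosome 16, 17130138 to 17132383) stood at 16.5, 16.3, 18.2 and 12.8 CPM in LacZ SS and at 33.3, 43.7, 32.5 and 29.7 CPM in LacZ TGFB, a log2 fold change of 1.13 ± 0.18 (adjusted p = 1.37e-05). Its iCre change was 0.95 ± 0.18 (adjusted p = 1.51e-04), and the groups did not overlap in either vector. The smallest change of the 10 was that of Dnajb9, which brings BiP to its substrates and to IRE1.

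Dnajb9 (chromosome 12, 44205559 to 44210326) stood at 47.0, 46.1, 45.7 and 39.9 CPM in LacZ SS and at 61.0, 78.8, 60.2 and 53.6 CPM in LacZ TGFB. These groups were close but did not overlap, and the log2 fold change was 0.51 ± 0.12 (adjusted p = 0.00132). On total counts without TMM it was 0.31 with an adjusted p of 0.0532, short of the threshold. In iCre it stood at 47.9, 42.9, 45.2 and 53.4 CPM in SS and at 62.0, 57.9, 55.5 and 52.6 CPM in TGFB, where number 4 was the highest SS and the lowest TGFB library. That change, 0.27 ± 0.12, did not pass the test (adjusted p = 0.0836). Without the libraries of number 4 it was 0.38 ± 0.096 (adjusted p = 0.00296), and all 10 members rose in iCre. The share of all genes tested that rose in that fit is not given here, so this count is not read as particular to the members.

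Xbp1 (chromosome 11, 5520659 to 5525893), which encodes the IRE1 target, stood at 81.0, 87.3, 81.5 and 88.7 CPM in LacZ SS and at 152, 199.9, 157 and 182 CPM in LacZ TGFB. Number 4 was not low here, and the log2 fold change was 1.03 ± 0.12 in LacZ (adjusted p = 8.43e-08) and 0.91 ± 0.11 in iCre (adjusted p = 1.05e-06). Herpud1, which helps to assemble the degradation machinery of the ER membrane, stood at 108, 95.9, 118 and 60.5 CPM in LacZ SS and at 204, 215, 177 and 169 CPM in LacZ TGFB. Number 4 was far below the others in SS, and the SE was the largest of the 10 genes. The Herpud1 log2 fold change was 1.00 ± 0.30 (adjusted p = 0.00754). In iCre the Herpud1 change was 0.92 ± 0.30 (adjusted p = 0.0164). It was 0.73 (adjusted p = 0.066) without iCre SS replicate 4 and 0.79 (adjusted p = 0.0602) without iCre TGFB replicate 1.

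Other marker levels moved in the same comparison. Of the 8 fibroblast markers, Lum (-2.33 on the log2 scale), Pdgfra (-2.07), Tcf21 (-1.60), Dcn (-1.07) and Col3a1 (-1.05) fell and Col1a1 rose (0.99) with TGFb in LacZ, and these were named after their values were seen. Their summed level had a median of 51309.5 CPM in LacZ SS and 48579.0 CPM in LacZ TGFB. The 12 leukocyte markers summed to 79.1 to 598.5 CPM in LacZ SS and to 43.0 to 396.2 CPM in LacZ TGFB, overlapping ranges in which 0 of the 12 passed the test in edgeR, 1 had an unadjusted p under 0.05 and DESeq2 called 1, while 11 of 12 fell with the replicate number as a block. Endothelial markers summed to 17.1 to 34.6 CPM in LacZ SS and 5.94 to 10.8 CPM in LacZ TGFB, and mural markers to 183 to 644.6 and 170.4 to 424.9 CPM. Schwann cell markers summed to 1.78 to 2.21 CPM in LacZ SS and 1.30 to 3.62 CPM in LacZ TGFB, and mesothelial markers to 7.43 to 10.8 and 4.63 to 8.53 CPM. Cardiomyocyte markers summed to 43.8 to 126 CPM in LacZ SS and 8.88 to 35.4 CPM in LacZ TGFB. That sum is mostly Tnnt2: Myh6, Actn2, Ryr2 and Nppa reached at most 0.53, 0.22, 0.97 and 0.15 CPM in any library. The endothelial sum is mostly Tek, with a median of 9.32 CPM over the libraries against 0.859 or less for the other endothelial markers. Of the markers of cells other than fibroblasts and leukocytes, Tnnt2 (-2.00), Tek (-1.86), Vwf (-1.65), Notch3 (-2.69) and Abcc9 (-1.88) fell and Cspg4 rose (2.61) on the log2 scale with TGFb in LacZ. In iCre the leukocyte sums ran from 69.7 to 762.6 CPM in SS and from 39.0 to 561.3 CPM in TGFB, and those of fibroblast markers had medians of 47855.1 and 49393.5 CPM. The part of these markers in the change of the 10 genes was not tested.

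**Figure D2:**
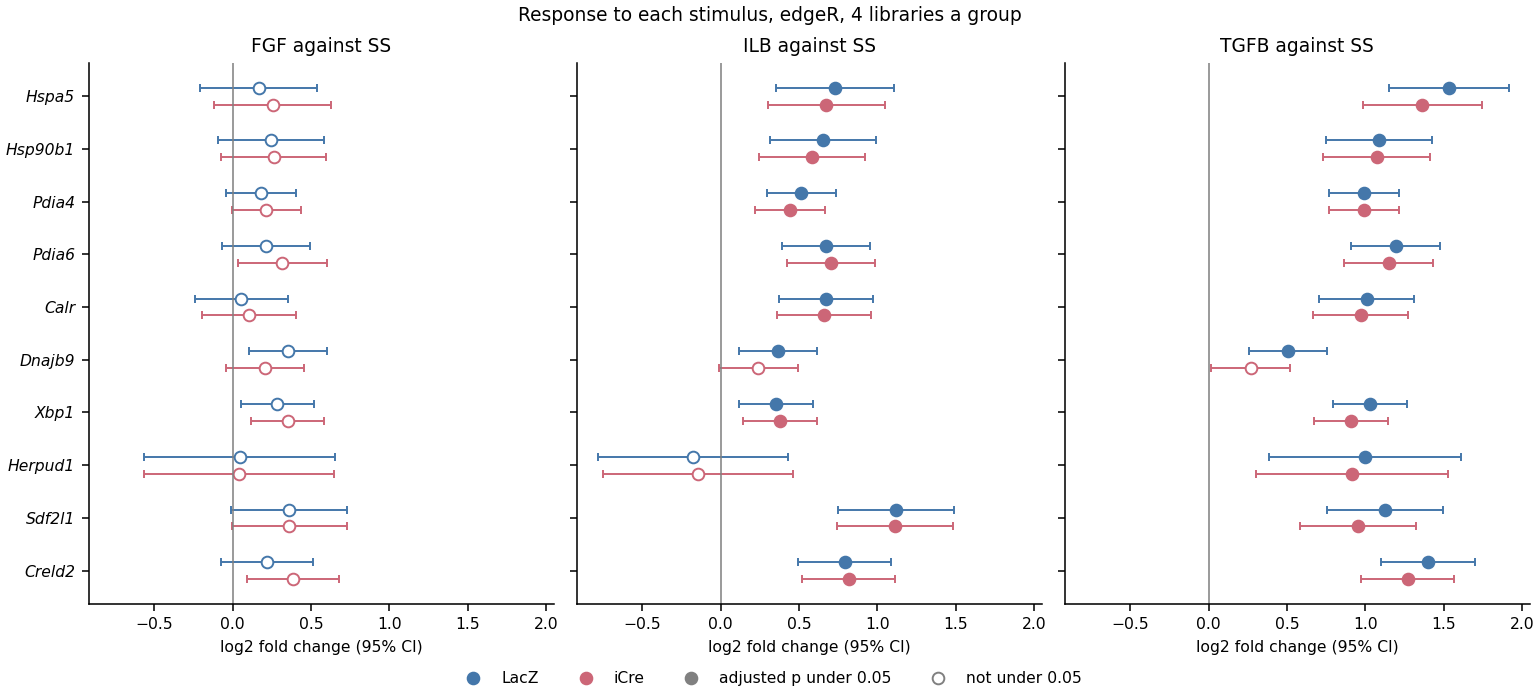
Log2 fold change of each of the 10 genes against SS, by stimulus (panel) and vector (colour), with 95% confidence intervals from edgeR and filled points for an adjusted p under 0.05. Hspa5 lies furthest from 0 under TGFB, Herpud1 lies near 0 under ILB, and the FGF points are all open and lie between 0.04 and 0.39.

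IL-1b raised most of the set, by less. In LacZ cells 9 of 10 members rose (11.1% of all genes tested rose), with a median log2 fold change of 0.66. In iCre cells 8 of 10 rose (8.88% of all genes tested), with a median of 0.62. Every ILB library lay above every SS library for 7 members in LacZ and 6 in iCre, which 13.1% and 10.6% of all genes tested did. The member with the largest change was Sdf2l1, and the exception in both vectors was Herpud1. The summed fibroblast markers had a median of 54021.7 CPM in LacZ ILB and the leukocyte markers ran from 115.2 to 723.5 CPM, ranges that overlap those of LacZ SS. Other sums did not overlap: cardiomyocyte markers, mostly Tnnt2, summed to 2.32 to 6.64 CPM in LacZ ILB against 43.8 to 126 CPM in LacZ SS. Endothelial markers, mostly Tek, summed to 10.7 to 14.8 against 17.1 to 34.6 CPM, and mesothelial markers to 4.11 to 6.36 against 7.43 to 10.8 CPM. With IL-1b in LacZ Tnnt2 (-4.12 on the log2 scale), Notch3 (-1.84), Cspg4 (-1.53) and Tek (-1.19) fell and the fibroblast marker Dcn rose (1.62). In iCre Tnnt2 (-4.05), Notch3 (-1.88) and Cspg4 (-1.34) fell and Dcn rose (1.76), as did the leukocyte marker Cd14 (1.73). The part of these markers was not tested.

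Sdf2l1 stood at 39.7, 36.9, 38.5 and 23.4 CPM in LacZ ILB, against 12.8 to 18.2 CPM in LacZ SS, a fold of 2.17 (log2 1.12 ± 0.18, adjusted p = 6.33e-05). In iCre it stood at 41.3, 36.1, 34.7 and 22.4 CPM, with a log2 change of 1.12 ± 0.18 (adjusted p = 8.13e-05). Number 4 was the lowest ILB library in both vectors, and even it lay above every SS library. Creld2 stood at 72.7, 64.6, 74.3 and 45.4 CPM in LacZ ILB and rose by 0.79 ± 0.14 on the log2 scale in LacZ (adjusted p = 2.64e-04) and by 0.82 ± 0.14 in iCre.

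The chaperones and isomerases moved together under IL-1b. Hspa5 stood at 1480.4, 1448, 1455 and 953 CPM in LacZ ILB, with number 4 well below the other libraries but above every SS library. Its log2 fold change was 0.73 ± 0.18 in LacZ (adjusted p = 0.00517) and 0.67 ± 0.18 in iCre (adjusted p = 0.0115). Pdia6 rose by 0.67 ± 0.14, Calr by 0.67 ± 0.15, Hsp90b1 by 0.66 ± 0.16 and Pdia4 by 0.52 ± 0.11 on the log2 scale in LacZ, with adjusted p between 8.43e-04 and 0.00525. In iCre these 4 log2 changes were 0.70, 0.66, 0.58 and 0.44, and all 4 genes rose. The Hsp90b1 call in iCre (adjusted p = 0.0149) was lost without iCre SS replicate 2 (adjusted p = 0.0555) or iCre ILB replicate 3 (adjusted p = 0.0558). For Hsp90b1 number 4 of LacZ ILB, at 1189 CPM, overlapped the SS range.

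Xbp1 and Dnajb9 rose the least under IL-1b, with adjusted p near the threshold. Xbp1 stood at 126, 110.3, 95.5 and 100.5 CPM in LacZ ILB, above every LacZ SS library, with a log2 change of 0.35 ± 0.11 (adjusted p = 0.0288). The Xbp1 call was lost without any 1 of LacZ ILB replicates 1 or 2 or LacZ SS replicates 1 or 3 (adjusted p from 0.0555 to 0.134), with log2 changes of 0.27 to 0.34. In iCre the Xbp1 change was 0.38 ± 0.11 (adjusted p = 0.0225), lost without iCre ILB replicate 1 (0.0596) or 2 (0.0639). Dnajb9 stood at 62.7, 59.0, 61.8 and 46.5 CPM in LacZ ILB, where number 4 overlapped the SS range. Its change was 0.36 ± 0.12 in LacZ (adjusted p = 0.0351), which was lost without any 1 of 7 LacZ libraries, namely ILB replicates 1 to 3 and SS replicates 1 to 4 (adjusted p from 0.0522 to 0.107), with log2 changes of 0.32 to 0.38. In iCre the Dnajb9 change of 0.24 ± 0.12 did not pass (adjusted p = 0.188). Without the libraries of number 4 it was 0.42 ± 0.096 (adjusted p = 0.00281), for 9 of 10 members. The share of all genes tested that rose in that fit is not given here, so the count is not read as particular to the members.

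Herpud1 did not follow the other members under IL-1b. It stood at 101, 103, 78.2 and 56.2 CPM in LacZ ILB, within or below the LacZ SS range, and it was higher in 1 of 4 LacZ pairs and 0 of 4 iCre pairs. The log2 differences were -0.18 ± 0.30 in LacZ (adjusted p = 0.741) and -0.14 ± 0.30 in iCre (adjusted p = 0.808). As a ratio of CPM, Herpud1 to Hspa5 was 0.118 ± 0.0238 in LacZ SS, 0.0631 ± 0.00804 in LacZ ILB and 0.0824 ± 0.00441 in LacZ TGFB (SD, n = 4). The ratio of Sdf2l1 to Herpud1 was 0.172 ± 0.0273 in LacZ SS, 0.414 ± 0.0564 in LacZ ILB and 0.181 ± 0.0165 in LacZ TGFB, and in iCre it was 0.178 ± 0.0409, 0.416 ± 0.0392 and 0.180 ± 0.0397. In both vectors the 4 ILB ratios lay above all SS and TGFB ratios.

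bFGF left no member past the threshold in either vector in the fit without the replicate block. The growth medium before starvation also held bFGF. All 10 members stood higher than in SS in both vectors, with median log2 differences of 0.22 in LacZ and 0.26 in iCre. With edgeR 0 of 10 passed in each, where 1.64% of all genes tested rose in LacZ and 1.44% in iCre. DESeq2 also called 0, and 2 members in LacZ and 3 in iCre had an unadjusted p under 0.05. Dnajb9 stood at 57.1, 57.0, 57.8 and 56.4 CPM in LacZ FGF, above every LacZ SS library, with a log2 difference of 0.35 ± 0.12 (adjusted p = 0.12). With the replicate number as a block it was 0.36 (adjusted p = 0.0476), in a fit where 7.02% of all genes tested rose.

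Xbp1 stood at 107, 110.1, 111 and 84.0 CPM in LacZ FGF, with number 4 inside the SS range and the others above it, and its log2 difference was 0.28 ± 0.11 (adjusted p = 0.192). Without the libraries of number 4, 2 members rose in LacZ, Xbp1 by 0.40 ± 0.11 (adjusted p = 0.0265) and Dnajb9 by 0.31 ± 0.096 (adjusted p = 0.0434). In iCre Xbp1 differed by 0.35 ± 0.11 (adjusted p = 0.103) and Creld2 by 0.39 ± 0.14 (adjusted p = 0.16), and both passed with the block (0.34, adjusted p = 0.0207, and 0.38, adjusted p = 0.0463), where 6.56% of all genes tested rose. Without number 4, 5 members rose in iCre: Xbp1 (0.46 ± 0.11), Creld2 (0.43 ± 0.12), Pdia6 (0.41 ± 0.10), Sdf2l1 (0.37 ± 0.12) and Hspa5 (0.35 ± 0.10), with adjusted p from 0.00842 to 0.0486. Calls over all genes tested also grew several times in both vectors without number 4, as given in the last section. A larger count of members there is thus not particular to them. Without iCre FGF replicate 4 alone 3 rose, Xbp1 (0.46), Pdia6 (0.44) and Creld2 (0.51), with adjusted p from 0.0176 to 0.0466. Number 4 also had the lowest median of the fibroblast marker sums. Cardiomyocyte markers, mostly Tnnt2, summed to 7.56 to 35.99 CPM in LacZ FGF, below every LacZ SS library. In LacZ Tek fell (-1.08 on the log2 scale) and Cspg4 rose (1.38) with bFGF. The part of these was not tested. Hspa5 in iCre FGF stood at 1115, 1075, 1116 and 639 CPM, with number 4 below every SS library.

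Set against each other with both vectors averaged, TGFb gave more than IL-1b for 8 of 10 members (26.5% of all genes tested were higher in TGFB) and more than bFGF for 9 of 10 (26.1%). IL-1b gave more than bFGF for 7 of 10 (13.0%). Herpud1 showed the largest gap between TGFb and IL-1b, 1.12 ± 0.21 on the log2 scale (adjusted p = 7.99e-05), followed by Hspa5 with 0.75 ± 0.13 and Xbp1 with 0.60 ± 0.081. For Sdf2l1 the difference between TGFb and IL-1b was -0.077 ± 0.13 (adjusted p = 0.64), with a 95% confidence interval from -0.335 to 0.182, so its levels under these cytokines could not be told apart. For Dnajb9 the difference was 0.084 ± 0.086 (adjusted p = 0.438).

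Between IL-1b and bFGF the largest gap was that of Sdf2l1, 0.76 ± 0.13 (adjusted p = 4.84e-05), ahead of Calr (0.59 ± 0.10), Creld2 (0.50 ± 0.10) and Hspa5 (0.49 ± 0.13). Dnajb9 (0.024 ± 0.086), Xbp1 (0.050 ± 0.081) and Herpud1 (-0.20 ± 0.21) did not pass, with adjusted p of 0.884, 0.725 and 0.543. Dnajb9 was also the member that did not pass between TGFb and bFGF (0.11 ± 0.086, adjusted p = 0.304), but without the libraries of number 4 it did (0.22 ± 0.068, adjusted p = 0.0102). The comparisons of each stimulus with SS share the SS libraries, so their values are given side by side and not as independent repeats.

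The vector made no difference that the tests could resolve. Averaged over the 4 conditions, 0 of 10 members passed with edgeR or DESeq2. In the edgeR fit without pairing 0 had an unadjusted p under 0.05, and 0.107% of all genes tested changed. The log2 differences of this fit, iCre minus LacZ, ran from -0.082 to 0.0056, and their 95% confidence intervals from -0.385 to 0.223 at the widest, so folds outside 0.766 to 1.17 lay beyond the interval of every member. Its lowest adjusted p was that of Xbp1, at -0.076 ± 0.057 (adjusted p = 0.853), which was lower in iCre in 11 of 16 pairs. In edgeR with each pair as a block the SEs were smaller and still no member passed. The lowest adjusted p there were those of Herpud1 (-0.10 ± 0.044, adjusted p = 0.194) and Xbp1 (-0.076 ± 0.036, adjusted p = 0.252). Hspa5 was lower in 8 of 16 pairs and higher in 8, with a difference of 0.0056 ± 0.091. Herpud1 was lower in 11 of 16 pairs, with a mean paired log2 difference of -0.10, and its pairs ran from -0.46 to 0.15.

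Within single conditions 0 of 10 members passed as well with edgeR or DESeq2, and 0.00% of all genes tested did, with 317 genes at an unadjusted p under 0.05 in SS, 335 in FGF, 251 in ILB and 526 in TGFB, none of them a member. In ILB 10 of 10 members were lower in iCre, with a median log2 difference of -0.040, in SS 5 and in FGF 4. In TGFB 9 of 10 were lower, with a median of -0.14 against 0.0059 over all genes tested. The lowest values in TGFB were those of Creld2 (-0.21 ± 0.14), Sdf2l1 (-0.21 ± 0.18) and Xbp1 (-0.19 ± 0.11). Of the 81 genes of the wider lists described below, 17 were higher in iCre in TGFB and 20 in ILB. This lean is thus particular neither to TGFB nor to the members. Creld2 stood at 90.1, 92.3, 69.3 and 87.6 CPM in iCre TGFB beside 84.9, 113, 92.9 and 103 CPM in LacZ TGFB, and the groups overlapped. The test of whether iCre altered a response likewise gave 0 of 10 for bFGF, IL-1b and TGFb (0.00% of all genes tested, with 67, 93 and 201 genes at an unadjusted p under 0.05). The median of the 10 response differences, iCre minus LacZ, was 0.041 for bFGF, -0.0069 for IL-1b and -0.10 for TGFb on the log2 scale. Under TGFb the 95% confidence interval of this difference was narrowest for Pdia4, from -0.312 to 0.313, and widest for Herpud1, from -0.943 to 0.775. The SE for Herpud1 was 0.42, and 0.18 with the replicate number as a block.

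**Figure D3:**
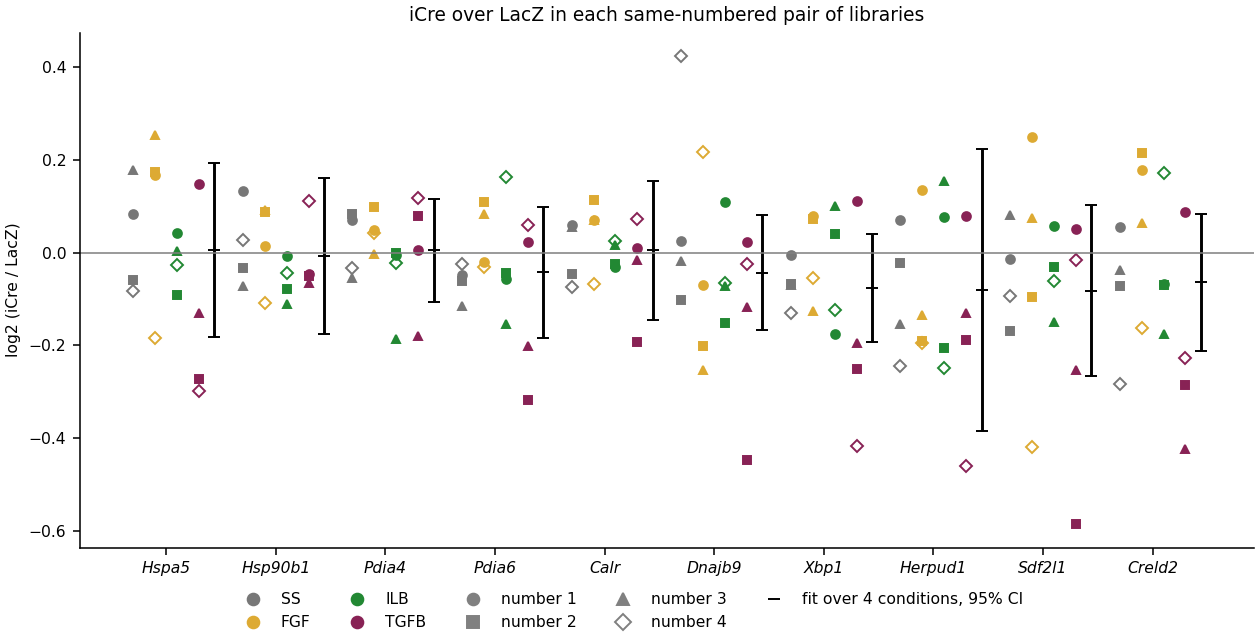
Log2 ratio of CPM, iCre over LacZ, for each of the 16 pairs of condition (colour) and number (shape), by gene, with the edgeR average over the 4 conditions from the fit without pairing and its 95% confidence interval in black. The pairs of each gene lie on both sides of 0, and all 10 intervals include 0.

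The number 4 libraries differed from the others in the balance between members as well as in level. In CPM, Hspa5 and Herpud1 were lowest in number 4 in all 8 groups, with mean log2 deviations from the group mean of -0.34 and -0.62. On plain totals without TMM, Hspa5 of number 4 was not the lowest in SS. In LacZ SS it held 20331 of 25205500 counts, against 16646 of 20736200 in number 2. In iCre SS it held 24664 of 30647000, against 20047 of 25193800 in number 2. Under TGFb 4 members were lowest in number 4 in CPM, Hspa5 and Herpud1 with Dnajb9 and Sdf2l1 in LacZ and with Dnajb9 and Xbp1 in iCre. By contrast, Hsp90b1 and Pdia4 of number 4 stood above all other libraries in LacZ TGFB, and Hsp90b1, Pdia4, Pdia6 and Calr did in iCre TGFB. Hspa5 to Hsp90b1, as a ratio of CPM, was 0.819, 0.810, 0.681 and 0.851 in the LacZ SS libraries 1 to 4 and 1.15, 1.17, 1.15 and 0.825 in LacZ TGFB. In iCre TGFB the ratios were 1.31, 1.00, 1.10 and 0.621. The ratios of the numbers 1 to 3 lay above every SS ratio under TGFb, whereas that of number 4 lay within the SS range in LacZ and below it in iCre.

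**Figure D4:**
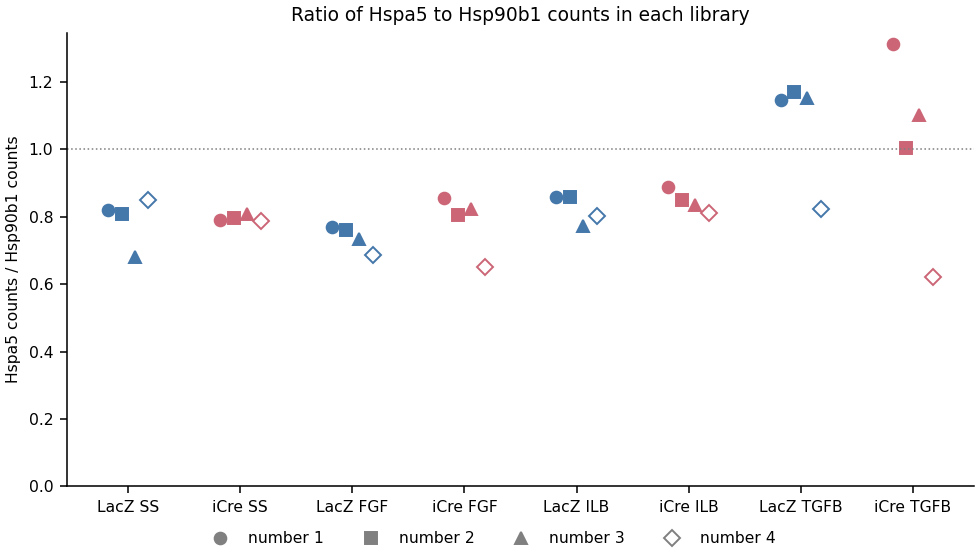
Ratio of Hspa5 counts to Hsp90b1 counts in every library, by group, with the shape giving the number and a dotted line at 1. In both TGFB groups the numbers 1 to 3 lie between 1.00 and 1.31, and the open point of number 4 lies at 0.825 in LacZ and 0.621 in iCre.

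Across the 32 libraries the 10 genes varied together, which is a description since the libraries share stimuli and numbers. Pearson's r of log2 CPM over the 45 pairs of genes ran from 0.39 to 0.99 with a median of 0.86. After the group means were taken out, r ran from 0.15 to 0.94 with a median of 0.70. Dnajb9 was the least tied to the rest, with a median r to the other 9 of 0.59 in level and 0.25 in deviation. Creld2 (r = 0.964) and Pdia6 (r = 0.963) were closest to Hspa5, and Herpud1 (r = 0.793) and Dnajb9 (r = 0.594) furthest. Many other genes were as close: 28 had a higher r to Hspa5 than Creld2, 173 than Hsp90b1 and 309 than Xbp1. For Sdf2l1, Herpud1 and Dnajb9 there were 958, 1438 and 3162 such genes, so values of this size are not particular to the members. Of the tested genes on none of the lists, the 5 with the highest r to Hspa5 over 32 libraries were Fkbp11 (0.984), Map2k1 (0.977), Psmc2 (0.977), Psmd4 (0.977) and Uqcrq (0.977). Fkbp11, a peptidyl-prolyl isomerase of the secretory pathway, differed from SS by 2.26 under TGFB, 1.19 under ILB and 0.36 under FGF on the log2 scale in LacZ.

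The wider pathway was read from 5 lists with 81 genes, all of which were tested. Of all genes tested, 23.4% rose with TGFb in LacZ and 20.2% in iCre. The shares were 11.1% and 8.88% with IL-1b and 1.64% and 1.44% with bFGF. Calls over all genes with IL-1b and bFGF also grew with the replicate block, and those with bFGF without number 4, as given in the last section. Larger counts in those fits are not read as particular to the lists. Genes of translocation into the ER and early secretion moved with the members: 20 of 20 rose with TGFb in LacZ (median log2 0.99) and 20 of 20 in iCre. Sec61b and Sec61g, subunits of the translocation channel, rose by 1.51 ± 0.10 and 1.32 ± 0.10 in LacZ, and Sec61a1, its pore subunit, by 1.02 ± 0.087 from a mean of 222 ± 10.2 to 449.7 ± 38.2 CPM. Under IL-1b 10 of 20 rose in LacZ and 8 in iCre (12 and 13 with the replicate number as a block, and 12 and 13 without the number 4 libraries), in LacZ among them Ssr2 (0.89 ± 0.14), Spcs2 (0.65 ± 0.095) and Sec61b (0.57 ± 0.099). Under bFGF 0 passed in LacZ with edgeR, 5 with DESeq2 and 9 with the replicate number as a block, and 10 had an unadjusted p under 0.05. In iCre Sec61b rose under bFGF (0.39 on the log2 scale), and 7 of the list did with the block. Without number 4, 7 of the list rose with bFGF in LacZ and 14 in iCre. Over the 5 lists 26 of 81 genes rose with IL-1b in LacZ and 19 in iCre (46 and 45 with the block, 47 and 45 without number 4). With bFGF 2 rose in each vector (15 and 13 with the block, 15 and 24 without number 4).

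Of 22 other folding factors 17 rose with TGFb in LacZ and 16 in iCre, and none fell (median in LacZ 0.70). Manf, a secreted ER stress protein, rose by 1.74 ± 0.17 from 100.3 ± 13.7 to 336 ± 65.3 CPM, and Hyou1, a nucleotide exchange factor of BiP, by 1.74 ± 0.20 from 178 ± 28.2 to 592 ± 57.2 CPM. P4hb, which encodes protein disulfide isomerase and a subunit of collagen prolyl hydroxylase, rose by 1.01 ± 0.13. With IL-1b 7 rose in LacZ (16 with the block) and 5 in iCre (16 with the block), led by Hyou1 (0.92 ± 0.20), Manf (0.75 ± 0.17) and Fkbp2 (0.54 ± 0.13). Without number 4, 17 rose with IL-1b in LacZ and 16 in iCre. With bFGF 0 passed in either vector with edgeR or DESeq2, and 2 in LacZ and 4 in iCre had an unadjusted p under 0.05, and 2 and 4 rose with the block. The ERSE was found in the promoters of Canx and Dnajc3, out of 16 genes of this list that had a promoter, and ERSE-II in that of Dnajb11.

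Of 18 genes of ER-associated degradation 12 rose and 2 fell with TGFb in LacZ (median 0.49), and 11 rose and 2 fell in iCre. Ube2g2, a ubiquitin-conjugating enzyme, rose by 1.21 ± 0.12, Syvn1, the ubiquitin ligase HRD1, by 0.85 ± 0.12 and Selenok by 0.71 ± 0.087. Os9, a lectin that recognises misfolded glycoproteins, fell by 0.45 and Herpud2, the paralog of Herpud1, by 0.50 on the log2 scale. With IL-1b 5 rose and 1 fell in LacZ (12 rose with the block): Ube2g2 (0.54 ± 0.12), Edem2 (0.38 ± 0.10) and Aup1 (0.31 ± 0.061) were those with the smallest p, and Herpud2 fell (-0.55 ± 0.14). In iCre 3 rose and 1 fell with IL-1b, and 10 rose with the block. Ube2g2 was the list's 1 gene that rose with bFGF in LacZ and in iCre, in LacZ by 0.55 ± 0.12 (adjusted p = 0.0126). With the block 1 rose and 1 fell in LacZ and 2 rose and 2 fell in iCre, and 2 rose in LacZ and 3 rose and 1 fell in iCre without number 4.

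Of 9 sensors and their proteases 6 rose and 1 fell with TGFb in LacZ (median 0.48), and 7 rose and 1 fell in iCre. Creb3l2, a membrane-bound factor of the ATF6 type that acts on secretory genes, rose by 1.72 ± 0.19, from 200.4 ± 19.0 to 661 ± 173 CPM, and Creb3 by 0.81 ± 0.14. Atf6b, the paralog of Atf6, rose by 0.37 ± 0.064, and Mbtps1, a protease that cuts ATF6, fell by 0.31 on the log2 scale. With IL-1b 3 rose in LacZ, Atf6b (0.82 ± 0.064, adjusted p = 3.63e-10), Creb3l1 (1.19 ± 0.21) and Ern1 (0.71 ± 0.18), which encodes IRE1. Atf6b was lower under TGFb than under IL-1b with both vectors averaged (-0.44 ± 0.045, adjusted p = 5.77e-09), and Ern1 did not pass with TGFb (0.22 ± 0.18, adjusted p = 0.331). In iCre 3 rose with IL-1b, and with the block 1 fell as well. With bFGF Atf6b passed in LacZ (0.26 ± 0.064, adjusted p = 0.0266), where 3 rose with the block and 3 without number 4. In iCre 0 passed (2 without number 4), 1 had an unadjusted p under 0.05 and DESeq2 also called 0.

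Of 12 genes of the PERK branch 8 rose and 1 fell with TGFb in LacZ (median 1.07), and 7 rose and 1 fell in iCre. Nupr1, a stress-induced cofactor, rose by 3.03 ± 0.46, from 88.0 ± 31.7 to 721 ± 162 CPM, Atf4 by 1.42 ± 0.26, from 148 ± 24.3 to 397 ± 70.4 CPM, and Ppp1r15a, which recruits the phosphatase that restores translation, by 1.09 ± 0.17. Bbc3, the pro-apoptotic PUMA gene, fell by 0.83 on the log2 scale. Ddit3, which encodes the pro-apoptotic factor CHOP, differed by 0.12 ± 0.23 in LacZ (adjusted p = 0.697) and 0.14 ± 0.23 in iCre (adjusted p = 0.66), and Chac1 (3.03 ± 0.66), Asns (2.24 ± 0.56) and Trib3 (1.93 ± 0.64) rose in LacZ. These 4 were named after their values were seen. With IL-1b 1 rose in LacZ (3 with the block, 5 without number 4), Ero1l, an ER oxidase (1.18 ± 0.41, adjusted p = 0.0437), and Bbc3 fell (-0.46 ± 0.15). In iCre 0 passed with IL-1b with edgeR, 1 with DESeq2 and 3 with the block, and 5 rose and 1 fell without number 4. With bFGF 0 passed in either vector with edgeR, DESeq2 or the block (without number 4, 1 rose and 1 fell in LacZ and 2 fell in iCre), and 2 in LacZ and 1 in iCre had an unadjusted p under 0.05.

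Between the vectors, averaged over the conditions, 0 of the 81 genes passed with edgeR or DESeq2, and 2 had an unadjusted p under 0.05. The smallest p was that of Kdelr1, a receptor that retrieves ER proteins, at -0.13 ± 0.047 (adjusted p = 0.438). With the replicate number as a block Ero1l was higher in iCre (0.31, adjusted p = 0.0404) and Dnajc10, an ER disulfide reductase, lower (-0.18, adjusted p = 0.0184).

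**Figure D5:**
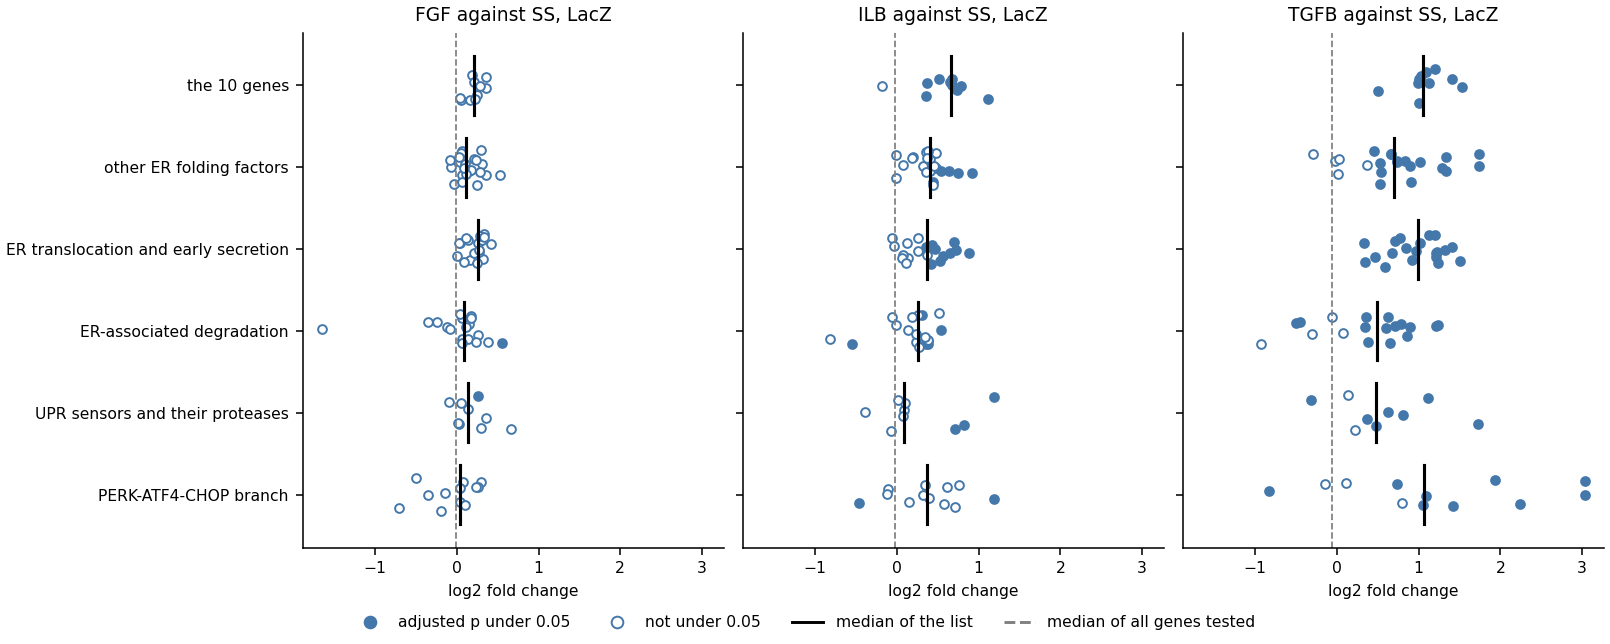
Log2 fold changes against SS in LacZ of the 10 genes and of the 81 genes of the wider lists, a point per gene, by list (rows) and stimulus (panels), with filled points for an adjusted p under 0.05, a black line at each list's median and a dashed line at the median of all genes tested. The TGFB medians of the wider lists run from 0.48 for the sensors to 1.07 for the PERK branch, and under FGF 2 of the 81 points are filled.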

How the data were processed

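The 32 libraries hold raw counts per gene, which the authors deposited as 1 table of whole numbers. Per the submitters' processing notes, reads were checked with FastQC 0.10.1 and counted with HTSeq 0.10.0 on mm10/GRCm38. The aligner and the strand setting, counting mode and annotation were each not given in the sources used here, and without a known strand setting reads of overlapping antisense genes cannot be told apart. Per the labels' protocols, RNA was extracted with RNeasy Micro and NEBNext Ultra II was used on poly(A) RNA. Of 55414 Ensembl IDs 52133, with 99.77% of the counts, matched a GENCODE M21 symbol. All columns could be tied to a sample by title (0 were left over).

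Counts were tested in edgeR 4.0.16 (R 4.3.3) by quasi-likelihood with robust dispersion, TMM factors and filterByExpr by group as the filter. All 32 libraries stood in 1 model, with 17 contrasts, two-sided p-values adjusted by Benjamini-Hochberg over 16760 genes and a threshold of 0.05. DESeq2 1.42.0 was the other tool. CPM per library uses totals over the genes tested multiplied by the TMM factors, with a prior count of 2 where it was logged for correlations. The model was tested on simulated data. Figures used matplotlib 3.10.9 in Python 3.11.15.

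The 10 genes and the wider lists were chosen with earlier results of these data known. Besides the 10, genes are named by a rule: for each wider list and stimulus, up to 3 that rose and 3 that fell with the smallest p in LacZ, up to 3 each way between the vectors, the 5 genes most like Hspa5, Pkm as a check of the floxed gene, and Nos2, Spry4 and Pmepa1 as checks of the stimulus labels. Genes outside it are marked in the text as named after their values were seen, or stand as counts of 5 or fewer, cell type markers and calls of other fits. The marker lists cover fibroblasts, leukocytes, endothelium, mural cells, cardiomyocytes, Schwann cells and mesothelium.

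Replicate numbers come from the titles. Deviations from group means correlated between same-numbered libraries of different groups at 0.139 to 0.857 (median 0.474) over 112 pairs, each over 0.1, so the numbers pair the libraries, and a fit blocked on the number is given where it changes a member's call or moves a count of calls by over 1.5 times. Chi-square per degree of freedom between libraries of a group was at least 9.88 over 48 pairs, so none was a copy of another. Alternatives were the block, total counts without TMM, DESeq2, no filter, a filter of 5 CPM in 4 libraries, each of 32 libraries left out, and all libraries of number 4 left out. The number of libraries limits the precision.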

Additional observations from a re-analysis of the deposited data

Results flagged for a closer look

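In 11 of the 80 groups of 4 values (10 genes in 8 groups) a single library stood far from the other 3, by the share of the group's range taken by its gap to the nearest other. Among independent groups chance alone gives about 1 in 20. The 80 groups are 10 genes that vary together in the same 32 libraries, so 11 of 80 is not set against that rate. How often other genes met this rule is not given here. In 10 of the 11 it was replicate 4, as the lowest library, and 0 of the 11 were in a TGFB group. The values are in CPM, so they carry the TMM factors of the libraries.

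Under bFGF in LacZ, Calr of replicate 4 stood at 988 CPM against 1229.9 to 1248 in the others (gap over range 0.9301), Xbp1 at 84.0 against 107 to 111 (0.8717) and Hsp90b1 at 1059 against 1254 to 1289 (0.8462). Under bFGF in iCre, Calr stood at 942 against 1306 to 1329 (0.9386), Hspa5 at 639 against 1075 to 1116 (0.9143) and Hsp90b1 at 982 against 1301 to 1357 (0.8514). In the bFGF comparisons no member passed with all libraries in the fit without the replicate block. The part of these gaps in that count was not tested.

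Under IL-1b in LacZ, Hspa5 of replicate 4 stood at 953 CPM against 1448 to 1480.4 (0.9394) and Sdf2l1 at 23.4 against 36.9 to 39.7 (0.8295). Under IL-1b in iCre, Pdia4 stood at 264 against 329 to 341 (0.8502) and Calr at 1422 against 1892 to 1981 (0.8407). The other case is Creld2 in LacZ SS, where replicate 3 was the highest at 42.2 CPM against 35.0 to 35.9 (0.8803).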

How the results depend on the processing

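No member changed direction past the threshold under any setting. The count of members that rose with bFGF, 0 in both vectors, was the value that moved: in LacZ it was 1 with the replicate block, 2 without the libraries of number 4 and 2 without them and with the block, and in iCre 2, 5 and 5. With 1 library left out it ran from 0 to 3 in iCre, the 3 without iCre FGF replicate 4, and stayed at 0 in LacZ. The other counts ran from 7 to 9 (IL-1b in LacZ), 7 to 8 (IL-1b in iCre), 10 to 10 (TGFb in LacZ) and 8 to 9 (TGFb in iCre). Without the filter IL-1b in LacZ lost Dnajb9 (adjusted p = 0.0675) and Xbp1 (0.0522), and on total counts Dnajb9 (0.142). Without number 4 and with the block, Herpud1 fell (-0.23, adjusted p = 0.0246) and Dnajb9 rose (0.17, adjusted p = 0.0419) between IL-1b and bFGF. The block changed no other call of a member than those given. Over the members, comparisons and settings, 6640 kept their side, 29 gained and 21 lost the call. Over all genes, calls with bFGF moved from 429 to 2048 with the block, 881 with DESeq2, 212 without the filter and 1638 without number 4 in LacZ, and from 368 to 1916, 856, 190 and 2621 in iCre. Those with IL-1b moved from 3216 to 5418 (LacZ) and from 2634 to 4868 (iCre) with the block, and between the vectors from 18 to 475 with the block, 85 with DESeq2 and 114 without number 4. On total counts the genes higher and lower went from 1853 and 1363 to 1375 and 1625 for IL-1b in LacZ, 1488 and 1146 to 1106 and 1251 in iCre, 4443 and 4034 to 2926 and 5047 for TGFb against IL-1b, 4372 and 4358 to 2515 and 6180 for TGFb against bFGF, and 2187 and 2157 to 1604 and 2563 for IL-1b against bFGF. The cause of these moves was not tested. Every member had at least 348 counts in every library.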
